A study of Mus musculus with 40 samples.

Results

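Of 70692 merged H3K27ac regions on chromosomes 1 to 19, 1111 were overlapped by a peak in the list of each of the 5 mutant genotypes and by no peak of the wild-type list. They were chosen by joining the peaks of the 6 H3K27ac lists that shared at least 1 bp and keeping the joined regions that met this rule. Acetylation of histone H3 at lysine 27 (H3K27ac) is laid down by the acetyltransferases p300 and CBP on nucleosomes beside active promoters and enhancers. Monomethylation of lysine 4 (H3K4me1) is deposited mainly by MLL3 and MLL4 and marks enhancers whether or not they are acetylated, while the centre of an active CpG-rich promoter usually carries trimethylation in its place. In blood stem and progenitor cells the enhancers that carry both marks lie around genes of cytokine signalling, self-renewal and lineage choice.

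The cells were sorted haematopoietic stem and progenitor cells of mice at 21 days of age. They came from wild-type mice and 5 mutants, Flt3-ITD (an internal tandem duplication that makes the cytokine receptor FLT3 signal without ligand), NUP98-HOXD13 (a leukaemia fusion of a nucleoporin with a homeodomain factor), Runx1-het (altered Runx1, a transcription factor of blood formation), and the double mutants Flt3-ITD/Runx1-het and Flt3-ITD/NUP98-HOXD13. The Runx1-het source names join Runxf and Vav, and the sources used here do not give the alleles, promoters or strains of any genotype. Both marks were mapped by ChIPmentation, in which the Tn5 transposase inserts sequencing adapters into immunoprecipitated chromatin, with 3 samples per genotype and mark, or 4 for H3K27ac in NUP98-HOXD13 and for both marks in Flt3-ITD/NUP98-HOXD13. The authors pooled each group into 1 peak list, so the spread between animals is unknown, no test between genotypes was possible, and the 95% Wilson intervals below reflect counting error alone. Where a list lacks a region, no peak passed the authors' calling threshold there, and the depth behind the lists is unknown. In bulk chromatin, fewer cells that carry a mark and less of the mark per cell cannot be told apart.

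The label of the cells was checked on the promoters (within 1 kb of a start site) of marker genes. Between 5 and 7 of 7 stem and progenitor markers had an H3K27ac promoter peak in each list. Of the 3 monocyte, 4 T cell and 4 non-blood markers none had one in any list. Between 0 and 1 of 5 mature granulocyte markers, 0 and 1 of 3 B cell markers, and 1 of 3 erythroid markers had one.

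The strongest regions were mostly promoters, and the weaker ones lay more often away from them. The same order was found among all regions in the 5 mutant lists. Promoter sequences of 5 of the 1111 regions are printed here to show CpG-rich and CpG-poor promoters among them. Those of Gpatch3, which encodes a G-patch domain protein, and Acadm, the medium-chain acyl-CoA dehydrogenase of mitochondrial fatty acid oxidation, ranked 5 and 7 of the 1111 regions, and stand for the CpG-rich kind. The capitals in these mark every CpG dinucleotide. The sequences are from RefSeq on GRCm38.p6, read 5′ to 3′ on the gene's strand, and end at the base before the start site. That of Gpatch3 is chr4:133574495-133574744 (plus strand), and that of Acadm is chr3:153944644-153944893 (minus strand).
Gpatch3: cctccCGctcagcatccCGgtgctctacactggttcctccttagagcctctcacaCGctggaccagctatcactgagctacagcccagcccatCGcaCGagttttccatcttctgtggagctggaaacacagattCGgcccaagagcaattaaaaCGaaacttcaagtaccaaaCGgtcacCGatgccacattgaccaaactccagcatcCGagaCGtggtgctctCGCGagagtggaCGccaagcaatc
Acadm: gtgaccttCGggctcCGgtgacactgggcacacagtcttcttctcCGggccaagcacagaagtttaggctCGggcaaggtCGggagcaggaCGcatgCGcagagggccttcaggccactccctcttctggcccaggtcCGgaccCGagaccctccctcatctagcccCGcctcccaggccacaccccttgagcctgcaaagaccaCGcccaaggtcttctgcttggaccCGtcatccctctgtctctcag

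The promoters of Igtp and Ifit3, 2 interferon-inducible genes, and of Gpr55, a receptor for lysophosphatidylinositol, hold letters that resemble the sites of signal-regulated factors. Igtp encodes an immunity-related GTPase and Ifit3 an antiviral protein with tetratricopeptide repeats. The regions at Gpr55 and Igtp ranked 13 and 14, and that at Ifit3, taken from the list of interferon genes, ranked 378. Capitals mark matches, on either strand, to any of 16 short motifs searched. In Igtp these are the STAT letters TTCNNNGAA and the IRF letters GAAANNGAA. In Ifit3 they are IRF letters in 3 places and the letters of AP-1 (TGANTCA), NF-Y (CCAAT) and CTCF (GGNGGCAG). In Gpr55 they are STAT letters, IRF letters and the PU.1-type ETS letters GAGGAAG. The stretches are chr11:58199306-58199555 (Igtp, plus strand), chr19:34583279-34583528 (Ifit3, plus strand) and chr1:85961056-85961305 (Gpr55, minus strand), and each lies inside its H3K27ac region.
Igtp: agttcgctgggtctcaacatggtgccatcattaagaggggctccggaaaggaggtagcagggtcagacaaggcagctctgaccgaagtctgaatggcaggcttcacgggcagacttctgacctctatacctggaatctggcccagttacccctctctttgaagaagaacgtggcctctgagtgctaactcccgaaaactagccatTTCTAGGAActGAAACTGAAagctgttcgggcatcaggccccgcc
Ifit3: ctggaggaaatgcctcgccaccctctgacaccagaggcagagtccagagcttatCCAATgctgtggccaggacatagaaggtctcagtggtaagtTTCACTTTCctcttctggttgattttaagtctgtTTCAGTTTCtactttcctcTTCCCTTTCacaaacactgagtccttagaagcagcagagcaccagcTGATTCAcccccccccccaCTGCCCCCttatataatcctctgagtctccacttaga
Gpr55: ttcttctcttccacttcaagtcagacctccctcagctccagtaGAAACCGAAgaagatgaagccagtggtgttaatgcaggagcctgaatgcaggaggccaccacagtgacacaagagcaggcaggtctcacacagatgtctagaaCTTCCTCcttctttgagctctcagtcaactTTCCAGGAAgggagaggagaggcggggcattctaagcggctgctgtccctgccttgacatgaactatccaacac

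The 3 kinds of motif were not frequent among the regions as a whole. In RefSeq windows of 300 bases around the start sites (250 before, 50 after), the STAT letters stood in 38 of 499 windows at the regions (7.62%, 95% interval 5.60 to 10.3), against 7.12% of windows at regions in all 6 lists and 8.35% of all autosomal windows. The IRF letters stood in 29 of 499 (5.81%, 4.08 to 8.22), against 7.45% and 8.52%, and the PU.1-type letters in 11.8% against 14.3% and 13.4%. The 499 windows belonged to 449 genes.

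The count of regions missing from wild type alone was high next to the same count for most other lists. Of 14664 regions in all 5 mutant lists, the wild-type list lacked 1111, or 7.58% (7.16 to 8.02), and the other 13553 were in all 6 lists. Runx1-het alone lacked 1079 of the 14632 regions in its 5 companion lists (7.37%, 6.96 to 7.81). NUP98-HOXD13 alone lacked 3.48%, Flt3-ITD/Runx1-het 2.30%, Flt3-ITD 1.84% and Flt3-ITD/NUP98-HOXD13 1.78% of theirs. A set of regions absent from 1 genotype alone was thus not peculiar to wild type, and the wild-type and Runx1-het sets were of like size.

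**Figure D1:**
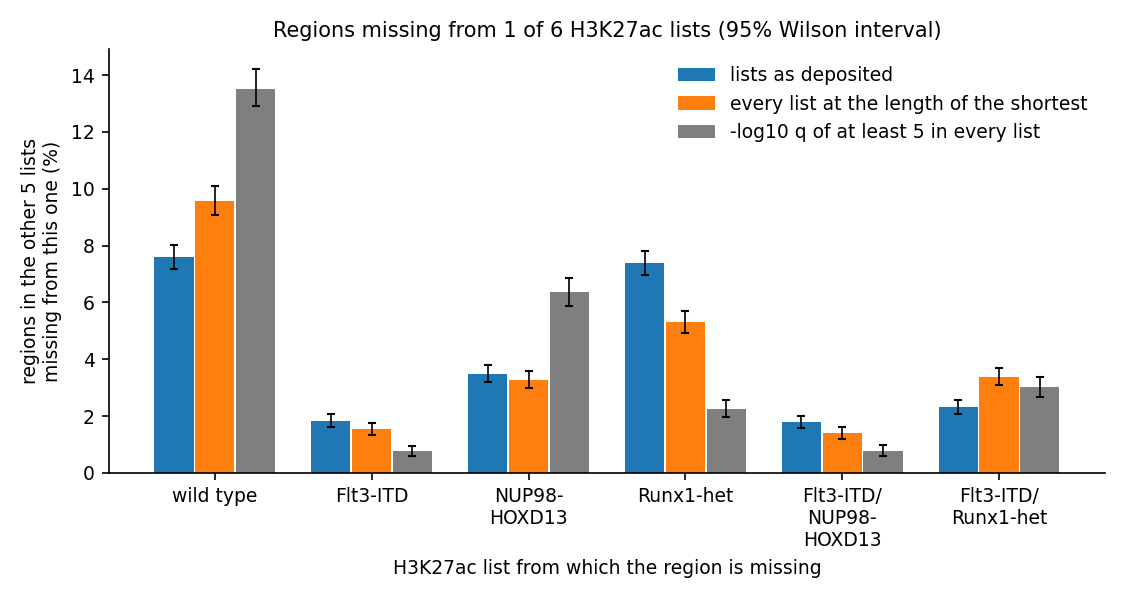
The bars give, for each H3K27ac list on the x axis, the percentage of regions held by the other 5 lists and missing from that one, and the error bars are 95% Wilson intervals. Wild type stood at 7.58% with the lists as deposited, 9.57% with equal-length lists and 13.5% with the stricter threshold, while Runx1-het fell from 7.37% to 5.30% and 2.25%.

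With every list shortened to the 31518 strongest autosomal peaks of the shortest list (Runx1-het), wild type alone lacked 9.57% (9.09 to 10.1) of the regions in the 5 mutant lists and Runx1-het alone 5.30% (4.93 to 5.69) of those in its companions. With every list restricted to a −log10 q of 5 or more, the shares were 13.5% (12.9 to 14.2) and 2.25% (1.96 to 2.57), and NUP98-HOXD13 reached 6.36%. That threshold left unequal lists, with 16066 peaks in wild type and 15191 in NUP98-HOXD13, against 18545 to 20831 in the others. The lists with the highest shares were thus the shortest at this setting. The regions missing from wild type alone were then largely other ones, since 280 of the 1111 overlapped one of the 1415 found at that threshold, against 908 with equal-length lists. The wild-type list as deposited was the longest, with 42796 autosomal peaks against 31518 to 42137, but its peaks were the narrowest, with a median of 388 bp against 585 to 885 bp. Over the regions in all 6 lists, wild-type peaks covered a median of 56.7% of the region and mutant peaks 72.6 to 87.6%. The part of list length and peak width in the 1111 regions was not tested beyond these settings.

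The regions were of moderate size and strength. Their median width was 1453 bp (quartiles 1117 and 1894, range 447 to 7599). The authors' fold enrichment over control, a value per peak that ranks peaks within its own list, had a median of 4.73 in Flt3-ITD, 4.71 in Runx1-het, 4.55 in NUP98-HOXD13, 5.13 with Flt3-ITD/Runx1-het and 5.05 with Flt3-ITD/NUP98-HOXD13. These medians stood at percentiles 54.9, 44.0, 56.4, 63.1 and 57 of their lists, while regions in all 6 lists stood at percentiles 77.3 to 83.1. In the 5 mutants alike, the regions lay near the middle of the list and below the regions shared with wild type. A region took the value of its strongest peak in a list, and 595 (53.6%) had 1 peak in every mutant list. Regions in all 6 lists were wider, with medians of 2184 to 2542 bp by position in the genome, against 1293 to 1515 bp. The part of width in the lower percentiles was not tested.

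The members varied in strength among themselves. At or above percentile 50 of all 5 mutant lists were 190 regions (17.1%), and 546 (49.1%) were below percentile 25 of at least 1. A −log10 q of at least 5 was reached in all 5 mutant lists by 280 (25.2%). Percentiles depend on the length of the list, so differences between lists are not read from them. The ranking below takes the lowest of the 5 percentiles of a region and so depends on list length too. That lowest value came from Runx1-het, the shortest list, in 437 regions, and from each other list in 130 to 215.

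By the lowest of its 5 percentiles, the highest-ranked region lay on chromosome 3 from 85573493 to 85575533, over the promoter of Gatb, a subunit of the mitochondrial amidotransferase that makes glutaminyl-tRNA. Its fold enrichment was 13.8 in Flt3-ITD, 9.79 in Runx1-het, 9.98 in NUP98-HOXD13, 14.2 with Flt3-ITD/Runx1-het and 15 with Flt3-ITD/NUP98-HOXD13, and the nearest wild-type peak was 26170 bp away. The region stood at percentiles 83.4 to 92.8 of the mutant lists, high in all of them. The next lay on chromosome 5 from 3891928 to 3893678, 229 bp from a start site of Mterf1a, a factor that ends transcription in mitochondria. Its values, in the same order of lists, were 7.99, 13.1, 7.41, 9.58 and 9.78, and a wild-type peak was 34054 bp away.

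Of the 20 highest-ranked regions, 18 were promoters, and 5 of these lay within 1 kb of start sites of 2 genes. The Acadm promoter (chromosome 3, 153943260 to 153945174) had fold enrichments between 7.48 (Flt3-ITD) and 10.7 (Flt3-ITD/NUP98-HOXD13). That of Pfas, an enzyme of purine synthesis, had 7.53 to 11, and that of Nop10, a protein of the H/ACA RNA particles that modify ribosomal RNA and hold telomerase, 6.95 to 11.2. The Pelo promoter, of a factor that rescues stalled ribosomes, had 6.96 to 10.8, and the Srebf1 promoter, of the sterol-regulated transcription factor of lipid synthesis, 7.41 to 14.4. In none of these 5 did the lowest mutant value fall under percentile 71.1 of its list.

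The promoter of Arl2bp, a partner of the small GTPase ARL2, had fold enrichments of 8.01 (Runx1-het) to 16.2 (Flt3-ITD/NUP98-HOXD13) and stood at percentile 77.4 or above in all 5 mutant lists. A start site of Ctbp2, a transcriptional corepressor, lay in a region with 7.65 to 13.7, whose nearest wild-type peak was 582 bp away. The region at Kcnab2, a potassium channel subunit, and Nphp4 had 7.17 to 16.5. The region at Igtp and Irgm2 (chromosome 11, 58199018 to 58199643), a pair of interferon-inducible GTPase genes, had 9.09 in Flt3-ITD, 7.30 in Runx1-het, 8.18 in NUP98-HOXD13, 10.3 with Flt3-ITD/Runx1-het and 11.5 with Flt3-ITD/NUP98-HOXD13. It was only 626 bp wide, and a wild-type peak stood 1773 bp away. At Gpr55 (chromosome 1, 85960578 to 85963096) the nearest wild-type peak was 64814 bp away and the values were 7.45 to 9.59.

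Only 2 of the 20 were distal. One lay in an intron of Maml3, a Notch coactivator, 96520 bp from a start site (chromosome 3, 52006273 to 52008556), with fold enrichments of 7.41 to 9.26. A wild-type peak lay 225 bp from it. The other was intergenic on chromosome 5 (91282797 to 91284060), 118934 bp from the start site of Btc, a ligand of the EGF receptor family, with values of 6.02 to 8.51 and no wild-type peak within 80727 bp. Both carried H3K4me1 in all 6 lists, wild type included. The remaining high-ranked regions lay at Gpatch3, Cryzl1, 4921536K21Rik, Cyb561d1, Nek9 (a mitotic kinase) and Zfp113.

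**Figure D2:**
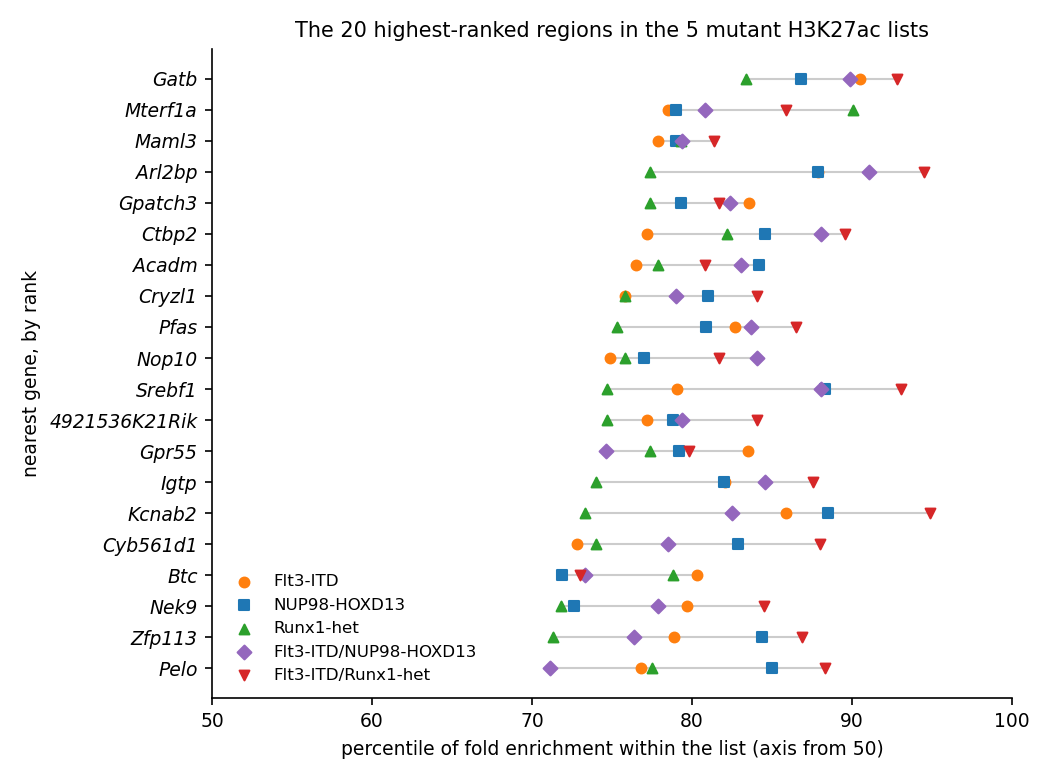
Each row is 1 of the 20 highest-ranked regions, named by its nearest gene, and each symbol is the percentile of its fold enrichment within 1 mutant H3K27ac list (x axis, from 50). All symbols lie above percentile 71, and since the lists differ in length the order of the symbols within a row is not read.

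The distance to the nearest wild-type peak separated regions beside wild-type acetylation from regions far from any. The median distance was 6812 bp, 214 regions (19.3%, 17.1 to 21.7) lay within 1 kb of a wild-type peak, and 97 (8.73%) lay more than 50 kb from one. Regions missing from another list alone lay within 1 kb of a peak of that list in 17.4% (Runx1-het) to 29.5% (Flt3-ITD). The 5 closest were in introns of Prkce, Rassf2 and Creb5 and in intergenic stretches near Apon and Bmper, 4 to 67 bp from a wild-type peak. Just outside the rule were regions in all 6 lists that wild-type peaks barely reached. At Tent5a, Elmo1, Mars2, Vat1 and Zfp704 wild-type peaks covered 3.89 to 4.46% of the region, with wild-type fold enrichments of 3.15 to 4.56. Of all regions in the 6 lists, 137 (1.01%) were covered to under 10% by wild-type peaks.

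By position, 464 of the regions (41.8%, 38.9 to 44.7) were promoters, 358 (32.2%) lay in introns, 255 (23.0%) between genes and 34 (3.06%) in exons. Among all merged regions 15.8% were promoters, and among regions in all 6 lists 50.6%. Regions missing from Runx1-het alone were promoters in 31.9% (29.2 to 34.7), and those missing from each of the other lists alone in 5.33 to 19.3%. The intervals of the wild-type and Runx1-het sets do not overlap. The promoter share fell with rank, from 78.0% of the first 100 regions to 53.0% of ranks 101 to 300 and 34.4% of ranks 601 to 1111. All regions in the 5 mutant lists showed the same order, so it was not particular to the 1111. Among them, promoters were 196 of 880 with a lowest percentile under 10 and 1918 of 4279 between 50 and 75. From percentile 75 up they were 4098 of 5542. The 647 distal regions lay a median of 21631 bp from the nearest start site, and 154 of them lay more than 50 kb away.

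How often wild type lacked a region fell steeply with its strength in the mutants. The rule used these lists, so the shares are descriptions. Of regions in all 5 mutant lists whose lowest percentile was under 10, wild type lacked 27.8% (25 to 30.9). The share was 23.5% between percentiles 10 and 25, 14.0% between 25 and 50, 4.23% between 50 and 75, and 0.162% (9 of 5542) from 75 up. Regions strong in every mutant were thus nearly all in the wild-type list.

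Within each step of strength below percentile 75, promoters were missing from wild type more often than distal regions. The shares were 39.3% (32.7 to 46.3) against 24.6% (21.5 to 27.9) below percentile 10, and 34.1% (29.1 to 39.4) against 192 of 959 (17.6 to 22.7%) between 10 and 25. They were 18.6% (16.1 to 21.5) against 12% (10.6 to 13.6) between 25 and 50, and 6.36% (5.35 to 7.54) against 2.50% (1.94 to 3.21) between 50 and 75. Over all strengths the order was the reverse, 6.33% of 7326 promoters against 8.82% of 7338 distal regions. At percentile 75 or above in all 5 mutant lists were 4098 of those promoters and 1444 of those distal regions. For Runx1-het the same steps gave 32.0% against 24.3%, 27% against 24.6%, 17.3% against 14.1% and 3.63% against 3.16%, and in each of these 4 pairs the intervals overlap. The difference between the wild-type and Runx1-het patterns was not tested.

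**Figure D3:**
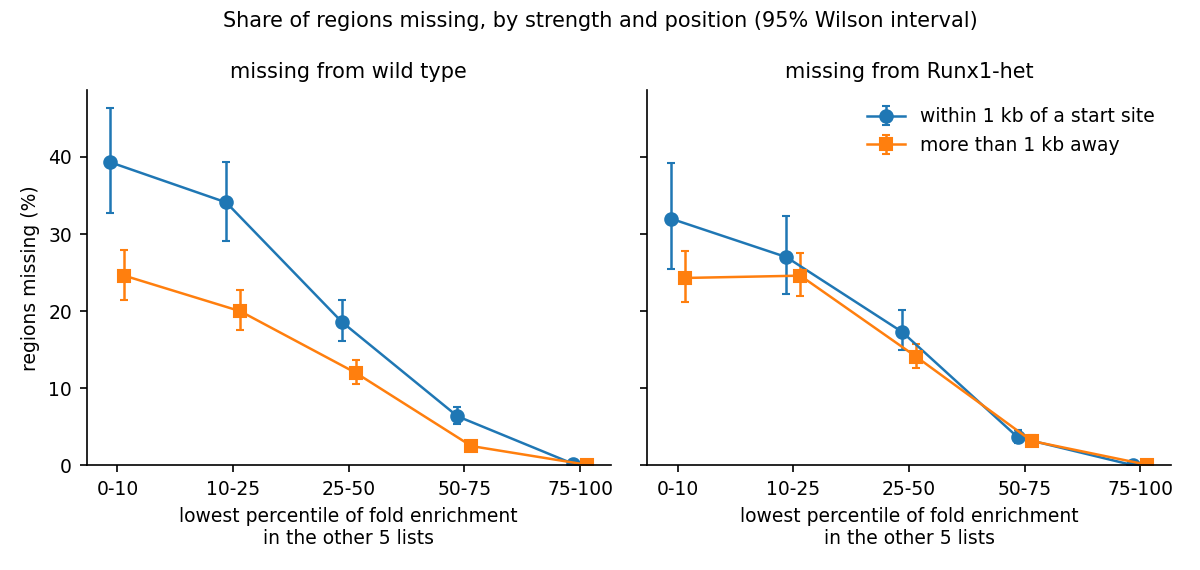
The y axis gives the percentage of regions in 5 lists that are missing from the wild-type list (left) or the Runx1-het list (right), by the lowest percentile of fold enrichment in the other 5 lists (x axis), for promoters and distal regions, with 95% Wilson intervals. On the left the promoter line lies above the distal line, with 39.3% against 24.6% at the weak end, and on the right the intervals of the lines overlap at each step.

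The promoters among the regions were mostly CpG-rich. The 499 RefSeq windows had a median of 20 CpG dinucleotides and a median GC content of 60.7%, against 22 and 61.3% for windows at regions in all 6 lists and 7 and 53.0% for all autosomal windows. At least 10 CpG stood in 83.2% (79.6 to 86.2) of them, against 84.3% and 44.0%. The 300-base windows of Gpatch3 and Acadm had 18 and 13, that of Igtp 9, that of Gpr55 4 and that of Ifit3 1. The stretches printed above leave out the 50 bases after the start site and hold 14, 12, 8, 3 and 1 of these. The GC box letters GGGGCGG stood in 42.1% of windows at the regions (42.8% at regions in all 6 lists, 23.4% of all windows). The ETS letters ACTTCCG stood in 15.8% (16.5% and 6.50%) and the CCAAT letters in 41.7% (37.2% and 37.3%).

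The CREB/ATF letters TGACGTC were the only ones of the 16 whose interval lay apart from that of the promoters in all 6 lists. They stood in 15 of 499 windows (3.01%, 1.83 to 4.90), against 7.47% (6.92 to 8.05) at regions in all 6 lists and 3.25% of all windows. Windows at regions missing from Runx1-het alone held it in 1.63%. The HOX/PBX letters TGATTNAT stood in 1 of 499 (0.200%, 0.0354 to 1.13), against 1.18% and 3.23%. Both were picked out after their values were seen. The RUNX letters TGTGGTT stood in 3.41% of windows at the regions and 5.32% of all autosomal windows. For GATA the letters were AGATAA, with 5.21% and 11.2%. For C/EBP they were TTGCNNAA, with 7.62% and 10.9%. For NRF1 they were CGCANGCG, with 16.2% and 8.28%. For YY1 they were ATGGCGG, with 10.8% and 4.07%. For the E-box they were CACGTG, with 10.4% and 7.14%. The AP-1 and CTCF letters given above had 5.41% and 7.84%, and 16.4% and 12.7%. Windows at regions in all 6 lists held the RUNX letters in 3.99%, GATA in 5.75%, C/EBP in 7.85% and NRF1 in 18.9%. They held YY1 in 9.29%, the E-box in 10.7%, AP-1 in 4.51% and CTCF in 14.7%. For these motifs the intervals at the 1111 regions overlapped those at regions in all 6 lists, so the differences from all autosomal windows were not particular to the 1111. Motifs were searched on both strands, letters of different motifs may overlap, and a match is only a run of letters.

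H3K4me1, which the rule did not use, was listed less often at these regions in wild type than in any mutant. A wild-type H3K4me1 peak stood in 550 of 1111 regions (49.5%, 46.6 to 52.4). The share was 54.2% (51.2 to 57.1) in Runx1-het, 65.0% (62.1 to 67.7) in Flt3-ITD and 65.6% (62.8 to 68.4) in NUP98-HOXD13. In the double mutants it was 66.1% (63.2 to 68.8) with Runx1-het and 68.9% (66.1 to 71.5) with NUP98-HOXD13. Wild type was 14.4 points under the mean of the 5 mutants, and its interval overlapped that of Runx1-het alone. Over all 70692 merged regions, too, wild type (39.7%) and Runx1-het (41.3%) were lowest. The shares there were 51.1% in Flt3-ITD and 47.7% in NUP98-HOXD13, and the double mutants had 49.9% (with Runx1-het) and 52.0% (with NUP98-HOXD13).

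Of regions in all 6 H3K27ac lists, 68.4% had a wild-type H3K4me1 peak. The mutants had 79.9% (Flt3-ITD), 78.8% (NUP98-HOXD13), 69.9% (Runx1-het), 78.7% (Flt3-ITD/Runx1-het) and 81.7% (Flt3-ITD/NUP98-HOXD13), and wild type was 9.4 points under their mean. Regions missing from Runx1-het alone had it in 51.3% in wild type and 48.5% in Runx1-het, with wild type 14.7 points under the mutant mean, although wild type held those regions as H3K27ac. The larger gap at the 1111 regions was thus also found at regions held by the wild-type H3K27ac list. The wild-type and Runx1-het H3K4me1 lists were the shortest, with 73007 and 72235 autosomal peaks against 93790 to 116497. With every H3K4me1 list at 72235 peaks, the wild-type share was 49.3% and the mutant shares were 54.2 to 62.8%, and the gap narrowed to 8.9 points, against 4.2 points at regions in all 6 lists and 8.8 at those missing from Runx1-het alone.

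The gap was alike at promoters and away from them. At the 464 promoters wild type had H3K4me1 in 27.8% (23.9 to 32.0) and the mutants in 34.7 to 48.5%. At the 647 distal regions the shares were 65.1% (61.3 to 68.6) and 68.2 to 83.5%. Wild type was 14.9 and 14.1 points under the respective mutant means.

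**Figure D4:**
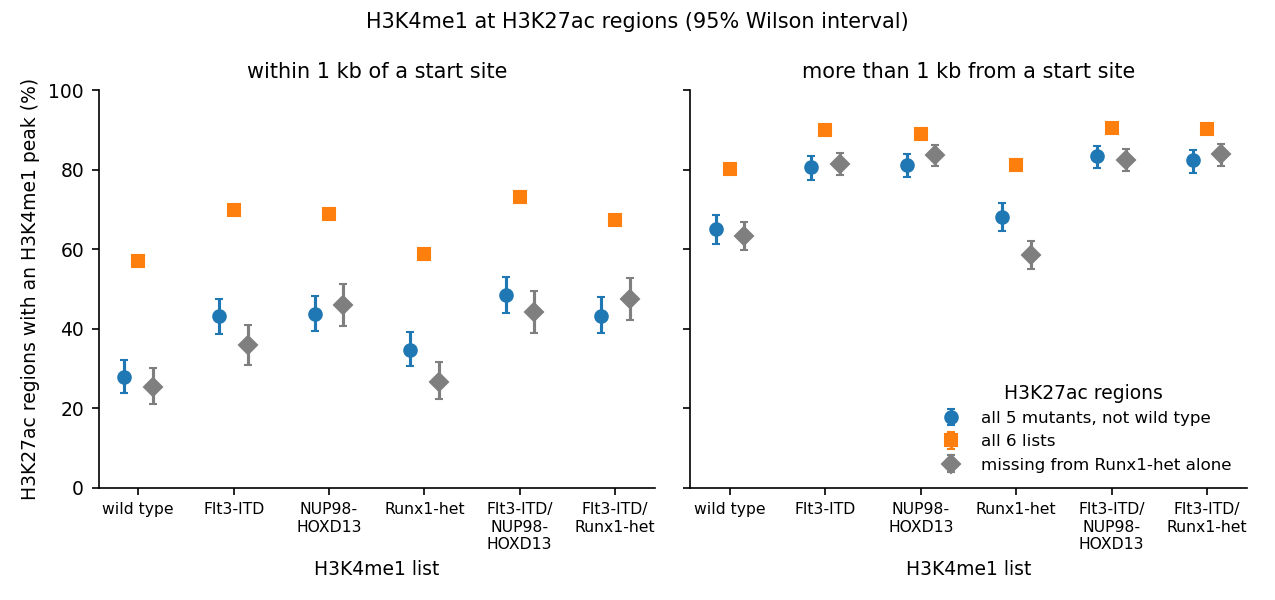
Each point is the percentage of H3K27ac regions with an H3K4me1 peak (y axis) in 1 genotype's list (x axis), for promoters (left) and distal regions (right), with 95% Wilson intervals. At the regions in all 5 mutants and not wild type the wild-type points, 27.8% and 65.1%, are the lowest of the 6 lists on each side, and the regions in all 6 lists lie above them throughout.

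Region by region, 353 (31.8%) carried H3K4me1 in all 6 lists and 159 (14.3%, 12.4 to 16.5) in none, against 50.6% and 6.19% of regions in all 6 H3K27ac lists, 29.7% and 11.9% of those missing from Runx1-het alone, and 20.1% and 26.8% of all merged regions. H3K4me1 in all 5 mutants but not wild type, the pattern that defined the regions for H3K27ac, was found at 74 of the 427 with H3K4me1 in all 5 mutants (17.3%, 14.0 to 21.2). That share was 10.0% (9.35 to 10.7) at regions in all 6 lists, 16.3% (15.8 to 16.9) over all merged regions and 19.8% (16.1 to 23.9) at regions missing from Runx1-het alone, so the 1111 regions were close to the background. Where an H3K4me1 peak was present, its median percentile within its own list was 69.0 in wild type, against 76.0 for the peaks at regions in all 6 H3K27ac lists, and it was below that of those regions in each mutant list too. Among the 20 highest-ranked regions 8 carried wild-type H3K4me1, 8 to 11 that of each mutant, and 6 carried it in no list.

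By nearest start site within 50 kb, 957 regions went to 896 of 20696 autosomal protein-coding genes (4.33%), and 524 genes (2.53%) had a region within 1 kb of a start site. Of these 524, 456 had no wild-type H3K27ac peak within 1 kb of any start site. Most genes, 848 of 896, were nearest to a single region. The genes of 24 lists, with 460 named genes and 4 families taken by symbol, were counted next. For 6 lists the interval lay above 4.33%, and for the other 18 it held that value. The 6 were STAT5 targets, cytokine receptors, stem cell genes, mitochondrial ribosomal proteins, MAPK feedback genes (from 4.34%) and histones, and some genes stand in more than 1 list. The 4.33% also counts genes without any merged H3K27ac region. Such a region within 50 kb was nearest to 17 of 17 STAT5 targets, 26 of 27 cytokine receptors and 26 of 28 stem cell genes. It was so for 23 of 24 MAPK, 65 of 78 mitochondrial ribosomal and 49 of 67 histone genes. The share among genes with any merged region was not computed.

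**Figure D5:**
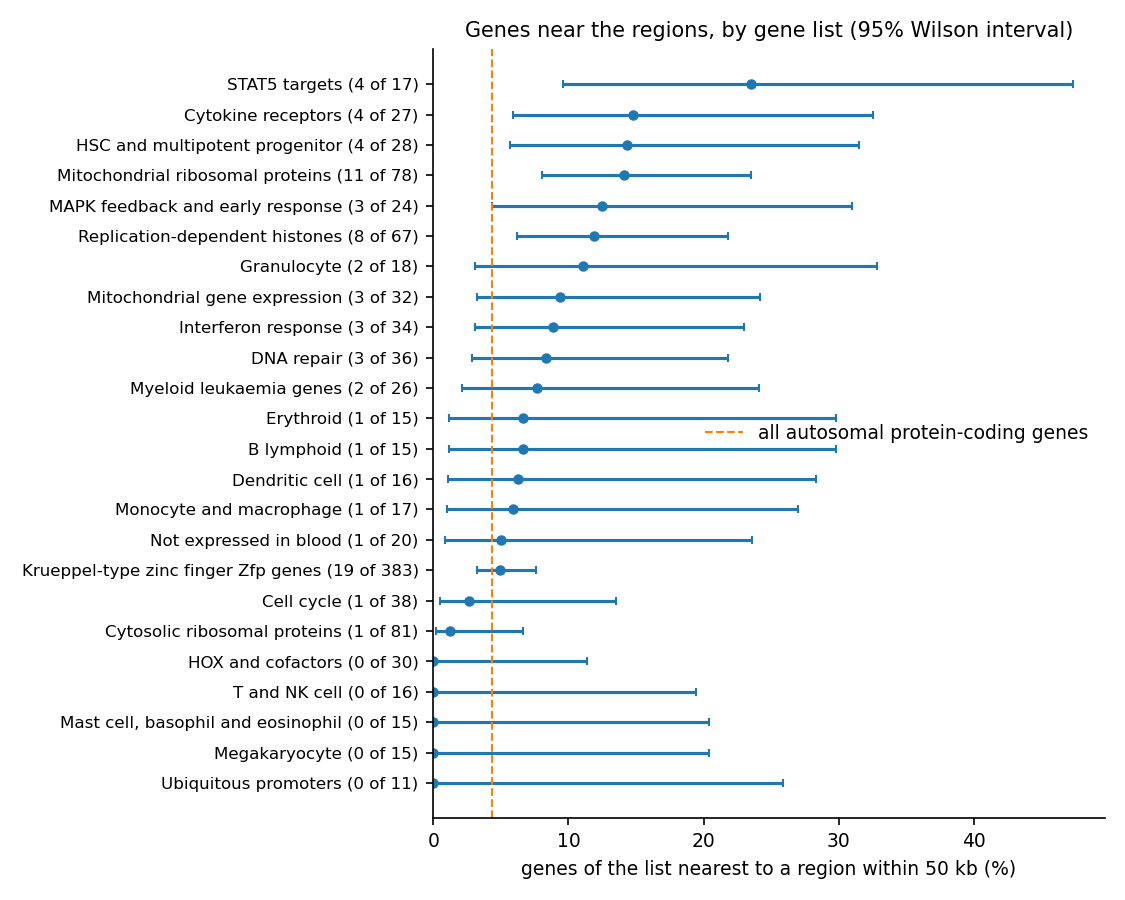
Each point is the percentage of a list's genes that are the nearest gene to a region within 50 kb, with 95% Wilson intervals, and the dashed line is the share of all autosomal protein-coding genes, 4.33%. STAT5 targets stand at 23.5% (4 of 17), mitochondrial ribosomal proteins at 14.1% (11 of 78), and 5 lists at 0.

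Genes of the mitochondrial ribosome, which translates the proteins encoded in mitochondrial DNA, were near a region in 11 of 78 cases (14.1%, 8.06 to 23.5). A region lay at the promoter of 9. Of the 65 with a promoter region in all 5 mutant lists, those 9 had no such region in all 6 lists, against 470 of 8052 genes (5.84%) overall. The Mrpl24 promoter region (chromosome 3, 87918732 to 87920600) had fold enrichments of 5.40 in Runx1-het to 8.63 in Flt3-ITD/NUP98-HOXD13. That shared by Mrps7 and Gga3 (chromosome 11, 115602635 to 115604983) had 4.70 to 9.40, and that of Mrpl42 (chromosome 10, 95500704 to 95502020) 4.21 to 6.38. A distal region 10840 bp from a start site of Mrpl1 had 3.70 to 5.17. Of 32 other genes of mitochondrial gene expression, 3 were near a region (9.38%, 3.24 to 24.2), an interval that holds the 4.33% of all genes. All 3 were promoters: Gatb, Mterf1a and Gfm1, a mitochondrial elongation factor. Of 81 cytosolic ribosomal protein genes 1, Rps28, was near a region (1.23%, 0.218 to 6.67), and that interval holds the 4.33% too. Among them 1, Rps10, had a region at its promoter, which it shares with an overlapping read-through gene. A promoter region in all 6 lists stood at 77 of the 81, and at 56 of the 78 genes of the mitochondrial ribosome.

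Replication-dependent histone genes, which supply histones in S phase and lie in clusters, were near a region in 8 of 67 cases (11.9%, 6.18 to 21.8), with 7 promoters. The regions at Hist1h2an (fold enrichments 6.70 to 13) and at Hist1h2bp (5.77 to 7.89) lie next to each other on chromosome 13 (21785918 to 21786930 and 21787097 to 21787620). Another, 17800 bp from Hist1h2br (chromosome 13, 21851571 to 21853783), had 5.74 to 15.5. The Hist2h3c1 region on chromosome 3 (96247294 to 96248566) had 4.95 to 9.20. Histone genes have near-identical copies, so reads at them can map to more than 1 place and these regions are uncertain. Zinc finger genes named Zfp, another large family of similar copies, were near a region in 19 of 383 cases (4.96%), close to the share of all genes.

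Among 17 targets of STAT5, the transcription factor activated downstream of FLT3-ITD, 4 were near a region (23.5%, 9.56 to 47.3), which are Ccnd3, Cish, Bcl2l1 and Socs3. The list was drawn up with earlier results of these data known. Bcl2l1, which encodes the survival protein BCL-XL, had a promoter region (chromosome 2, 152830683 to 152831808) with 7.21 in Flt3-ITD, 6.98 in Runx1-het, 5.59 in NUP98-HOXD13, 3.67 with Flt3-ITD/Runx1-het and 8.56 with Flt3-ITD/NUP98-HOXD13. It carried H3K4me1 in no list. The regions 8193 bp from Cish and 8131 bp from Socs3, both feedback inhibitors of cytokine signalling, had 3.75 to 7.80 and 3.37 to 6.79, and carried H3K4me1 in all 6 lists.

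Ccnd3, which encodes the G1 cyclin D3 of blood progenitors, and Ksr1, a scaffold of the RAF, MEK and ERK kinases, had the most regions, 5 each. Apart from these 5, which the rule gives to every mutant list and not to wild type, 22 merged H3K27ac regions were nearest to Ccnd3, and the wild-type list held 8 of them and the mutant lists 6 to 11. The 5 on chromosome 17 were a promoter region (47504490 to 47505768; 4.03 to 6.22), and intronic regions 2189 bp (4.26 to 11.5), 8496 bp (4.25 to 6.22), 26500 bp (3.26 to 5.05) and 36257 bp (3.12 to 6.63) from a start site. A wild-type peak lay 172 to 6445 bp from each of them. At Ksr1 the 5 regions had fold enrichments between 3.08 and 6.44, and of the 42 other merged regions the wild-type list held 9 and the mutant lists 7 to 34. Foxp1, a forkhead factor needed for B cell development, had 4, and of its 115 other merged regions the wild-type list held 44 and the mutant lists 30 to 54. At all 3 genes the wild-type count of other regions lay within the range of the mutants. Among the 10 genes with most regions it lay outside that range only at Sgms1 and Spata48, and above it at both. Wild type held 41 of 66 other regions at Sgms1 (mutants 22 to 33) and 2 of 4 at Spata48 (mutants 0 to 1).

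Coro2a, Etv6, Mbp, Sgms1 and Spata48 had 3 regions each, and 1700057G04Rik and Adgre5, which encodes the adhesion receptor CD97, had 2. The Coro2a regions, in introns of a coronin gene, included one with fold enrichments of 4.95 to 10.0. It carried H3K4me1 in no list. The intergenic Adgre5 region (chromosome 8, 83747440 to 83749865) had 4.87 to 14.0. These values rank peaks within a list and are not compared between genotypes. Mbp, placed in the list of genes not expressed in blood as a myelin gene, was its only gene near a region, and all 3 of its regions carried H3K4me1 in all 6 lists. The wild-type list held 8 of the 25 merged H3K27ac regions at Mbp, so the locus was acetylated in wild type despite its place in that list.

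Of 28 stem cell genes 4 were near a region (14.3%, 5.70 to 31.5), which are Etv6, Hmga2, Lmo2 and Erg. None of the 28 had a region at its promoter, but only 2.53% of all genes had one. Of the 16 with a promoter region in all 5 mutant lists, 0 had none in all 6 lists, against 470 of 8052 genes (5.84%) overall. The strongest of the regions lay 13087 bp from the start site of Etv6, an ETS repressor needed by adult stem cells. It (chromosome 6, 134020270 to 134022613) had 4.95 to 6.82. The other Etv6 regions, in introns, had 4.06 to 4.39 and 3.54 to 5.76. The Erg regions, in introns of a stem cell ETS factor, had 2.61 to 4.87, and that in Lmo2, a bridging factor of haematopoietic transcription complexes, 3.02 to 4.31. The exonic Hmga2 region, in a gene of fetal stem cell self-renewal, had 3.77 to 5.49.

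Interferon response genes were near a region in 3 of 34 cases (8.82%, 3.05 to 23.0), an interval that holds the 4.33% of all genes. They had one at 4 promoters (11.8%, against 2.53% of all genes), those of Igtp, Irgm2, Eif2ak2 and Ifit3. Igtp and Irgm2 share a single region. Of 30 with a promoter region in all 5 mutant lists, 3 had none in all 6 lists, against 470 of 8052 genes (5.84%) overall. Eif2ak2, the kinase PKR that senses double-stranded RNA (chromosome 17, 78881312 to 78883391), had 7.08 in Flt3-ITD, 5.42 in Runx1-het, 7.85 in NUP98-HOXD13, 10.7 with Flt3-ITD/Runx1-het and 13.8 with Flt3-ITD/NUP98-HOXD13. Ifit3 (chromosome 19, 34582612 to 34584561) had 5.59, 10.3, 6.65, 3.88 and 8.87 in the same order.

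Receptors and early response genes had scattered regions. Of 27 cytokine receptor genes 4 were near one (14.8%, 5.92 to 32.5): Il6st (4.50 to 6.02), Ifngr1 (4.23 to 6.70), Csf3r (3.31 to 6.02) and Cxcr4 (2.78 to 6.93). The Csf3r region, at a promoter of the G-CSF receptor gene, lay 20923 bp from a wild-type peak. Of 24 MAPK feedback and early response genes 3 were near one (12.5%, 4.34 to 31.0), namely Dusp1 (4.55 to 7.76), Dusp10 (3.46 to 5.49) and Egr3 (2.91 to 5.39). Of 36 DNA repair genes 3 were near a region (8.33%, 2.87 to 21.8), each at a promoter. They were Ung, the uracil glycosylase (5.99 to 8.51), Parp1, the poly(ADP-ribose) polymerase (3.77 to 7.89), and Ercc2, a helicase of nucleotide excision repair (2.22 to 5.01). The cell cycle list had 1 of 38 (2.63%, 0.466 to 13.5), the promoter of the replication licensing factor Cdc6 (4.44 to 5.84). The intervals of both lists hold the 4.33% of all genes.

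The intervals of the 8 lists of lineage genes all held the 4.33% of all genes. Granulocyte genes had 2 of 18 (Csf3r and Prtn3), monocyte and macrophage genes 1 of 17 (Itgam), dendritic cell genes 1 of 16 (Clec9a), B lymphoid genes 1 of 15 (Bach2) and erythroid genes 1 of 15 (Zfpm1). The Clec9a region, over the promoter of a receptor of cross-presenting dendritic cells (chromosome 6, 129405587 to 129408890), had 4.14 to 8.71. HOX genes and their cofactors (0 of 30), T and NK cell (0 of 16), megakaryocyte (0 of 15) and mast cell, basophil and eosinophil genes (0 of 15) had none, nor did 11 ubiquitously active promoters. Myeloid leukaemia genes had 2 of 26 (7.69%, 2.14 to 24.1), Etv6 and Trp53, the latter with an intronic region of 3.93 to 7.05. None of the regions was nearest to Flt3, Runx1, Nup98 or Hoxd13.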

How the data were processed

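H3K27ac and H3K4me1 were measured in 39 samples of 6 genotypes, and an input sample was not used. BWA alignment to mm10 (GRCm38) and MACS2 peak calling are named, per the submitters' processing notes. The sources used here give neither their versions nor their settings. The authors deposited 1 narrowPeak list per genotype and mark, 12 in all, pooled over the group. The labels state no depth. Each deposited list gives a score of at most 1000, a ratio (fold enrichment over control at the summit), −log10 p, −log10 q and the summit offset. The deposited ratio was used to rank and describe peaks within a list, as a percentile of that list. The deposited −log10 p values ordered peaks where lists were shortened, and the deposited −log10 q set the stricter threshold. The deposited score and summit offset were not used for any value printed.

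Peaks on chromosomes 1 to 19 were merged at 1 bp overlap with Python 3.11.15, numpy 2.4.6 and pandas 2.3.3. One shared bp was enough for a list to hold a region. GENCODE mouse release 21 gave 41421 start sites of 21840 protein-coding genes, and promoters reached 1 kb from them. Tested on simulated data, the merging and membership steps recovered 1001 of 1001 planted regions among 20000. Shares carry 95% Wilson intervals, and no p-value was computed. Promoter windows came from RefSeq (GRCm38.p6), 31396 of them autosomal. Named genes are those of the 20 regions ranked highest by their lowest percentile over the 5 mutant lists, the 10 genes with most regions, up to 4 genes per list, the genes of the genotypes, and the 5 regions just inside and just outside the rule. A promoter shared with a second gene, and the genes in the lists of counts, were also named. The members, the gene lists and the motifs were chosen with earlier results of these data known. The letters searched for IRF and NRF1 were shortened after a first search with longer ones. Alternatives were other overlaps, thresholds, list lengths, merging gaps, numbers of mutant lists and distances.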

Additional observations from a re-analysis of the deposited data

How the results depend on the processing

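The number of regions, 1111, stayed within 1.5 times under a −log10 q of 5 or more required throughout, equal-length lists, merging of peaks up to 500 bp apart, no wild-type peak within 1000 bp and inclusion of all chromosomes. The regions themselves changed more: 280 of the 1111 overlapped one of the 1415 regions found with the −log10 q throughout, 908 one of 1337 with equal-length lists, 866 one of 930 with merging, and 294 one of 2576 with the cover of 0.5. It was 2576 when peaks had to cover at least 0.5 of a region, 2784 with at least 4 of the 5 mutant lists, and 282 with a −log10 q of at least 5 in the mutant lists alone. The promoter share, 41.8%, was 62.7% with the cover of 0.5, 62.8% with the −log10 q throughout, 45.5% with equal-length lists, 45.6% with merging at 500 bp, 46.9% with no wild-type peak within 1000 bp, 32.8% with 4 mutant lists and 67.4% with the −log10 q in the mutant lists alone. The wild-type H3K4me1 share, 49.5%, was 58.0% with the cover of 0.5 for H3K27ac, 45.8% with no wild-type peak within 1000 bp, 35.5% with the −log10 q in the mutant lists alone, and 15.9% where H3K4me1 peaks had to cover 0.5 of the region. The gap of −14.4 points between wild type and the mutant mean kept its direction in all 10 alternatives, and was −8.9 with H3K4me1 lists of equal length. The share within 1000 bp of a wild-type peak, 19.3%, was 42.8% within 5000 bp. The number of genes, 896, was 524 when counted by any start site within 1000 bp of a region. Among the alternative values for gene lists, motif shares and other shares, 70 stayed within 1.5 times for a count or within the interval for a share, and 44 did not. The 5000 bp distance contains the 1000 bp one, so that share could not fall. The alternative for motifs was the 200 bases before the start site, part of the 300-base window, so those shares could not rise. The cause of the other changes was not tested.

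No paired analysis was possible because each list pools its group, and for the same reason no replicate was left out. Motifs in summit windows were not run, since no genome sequence of the build was used here, and promoter windows took their place. This choice and the count by any start site were made after seeing the data. Unknown depth and pooling limit every comparison: a missing peak is not an absent mark, and the spread between animals is unknown.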

Other observations

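On chromosome X, which the rule leaves out, 17 of 280 regions in all 5 mutant lists were missing from wild type alone (6.07%). The other lists alone lacked 3 (NUP98-HOXD13) to 8 (Runx1-het). The promoter of Xiap, which encodes an inhibitor of caspases, was among the 17, with fold enrichments of 6.40 in NUP98-HOXD13 to 9.56 in Runx1-het. A promoter region at Bclaf3 had 5.14 to 8.61. A region 72631 bp from a start site of Bcor, a corepressor mutated in myeloid leukaemia, had 6.46 to 10.3, and one 9029 bp from Dock11 had 4.87 to 5.86. On chromosome Y the H3K27ac lists held 5 peaks in each genotype with Runx1-het, 1 in Flt3-ITD and in its double mutant with NUP98-HOXD13, and 0 in the other lists. The part of sex in the X-linked counts was not tested.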
